A study of Mus musculus with 30 samples.

Results

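Serpina3n, Lcn2, Cd44, Osmr, Timp1, S1pr3, Steap4, Aspg and Stat3 are genes that are widely used as signs of astrocyte reactivity in the rodent brain, and they were taken as a fixed list of symbols. All 9 were found among the 21412 genes of the table, which holds hippocampus RNA of male BALB/c mice. The list is one of names and sets no threshold on the measured values, but it was drawn up with earlier results of these data known. There were 6 groups of 5 mice, with 1 library for each mouse. Ctr mice received unspiked feed, LD mice feed with 0.28 mg MeHg (methylmercury) per kg and HD mice feed with 5 mg MeHg per kg, all for 11 weeks from a few weeks of age. Se_Ctr, Se_LD and Se_HD mice are labelled with the same 3 dose names and selenium, which the title of the series gives as selenium-methionine, and their labels give neither amounts nor time on feed. The labels name no transgene or deletion, and the questions were how dietary MeHg changed the hippocampus and whether selenium altered that change.

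Astrocytes respond to injury, toxic metals and inflammation by changing their shape and gene expression, a state called reactive. Cytokines of the interleukin 6 family, such as oncostatin M, act through receptors that share the gp130 chain, and Jak kinases then phosphorylate Stat3, which moves to the nucleus and induces Gfap and other genes of the reactive state. Most of the 9 genes belong to a set that rises after very different insults (pan-reactive genes), while the A1 and A2 lists were described after endotoxin and after ischaemia, and many of these genes are also used by microglia, endothelium or fibroblasts.

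Each library held from 5768208 to 11510521 reads assigned to genes (median 9351470.5). The values are normalized counts, that is, read counts divided by a size factor for each library. All 10 astrocyte markers, such as Aldh1l1, Aqp4 and Slc1a3, and all 5 hippocampus markers, such as Prox1 and Neurod6, were detected. One library stood apart. HD replicate 2 had the highest level of 8 of the 9 genes among the HD mice, at a median of 8.94 times the Ctr mean over the 9 genes, and the main results that rest on HD mice are therefore also given without it. HD replicate 5 was second for 6 of the 9 genes, and HD replicate 3 was lowest for 7.

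In control hippocampus the 9 genes covered a wide range of levels. Per kilobase of exon, Serpina3n stood highest at a mean of 345 normalized counts per kb in Ctr mice, followed by Stat3 at 50.6 and S1pr3 at 14.7. Aspg, Cd44 and Osmr lay between 8.97 and 11.2 on this scale. Timp1, Steap4 and Lcn2 were near the limit of detection, at 3.70, 2.16 and 1.06. A count of 0 allows up to 3 reads, which is between 2.22 and 5.10 normalized counts depending on the library, so the control levels of Lcn2 and Timp1 were within what few reads can show.

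All 9 genes have a promoter in RefSeq (build GRCm38.p6, 250 bases before to 50 after the start of the gene), and stretches of 4 of them are shown because these genes mark the extremes of the responses described next. Serpina3n had the highest level and a rise in all 5 HD mice, Timp1 had the largest log2 fold change of HD over Ctr (with HD replicate 2 included, since without it Lcn2 had 1.35 and Timp1 1.32), Osmr was the receptor that rose in both diets, and Steap4 was the gene that did not pass the test. Capitals mark a match to the Stat motif TTCNNNGAA in Steap4 and to TGANTCA in Osmr, each searched on both strands. TGANTCA is a loose form of the AP-1 motif that allows any middle base, which is T in Osmr.
Serpina3n, chr12:104406588-104406707, plus strand, from 120 bases before the start: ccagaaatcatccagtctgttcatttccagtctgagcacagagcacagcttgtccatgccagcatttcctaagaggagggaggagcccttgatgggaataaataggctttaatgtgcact
Timp1, chrX:20870046-20870165, plus strand, from 120 bases before the start: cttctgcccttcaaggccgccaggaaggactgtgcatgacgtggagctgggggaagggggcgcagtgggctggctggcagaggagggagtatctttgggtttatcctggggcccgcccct
Osmr, chr15:6874284-6874393, minus strand, from 80 bases before to 30 bases after the start: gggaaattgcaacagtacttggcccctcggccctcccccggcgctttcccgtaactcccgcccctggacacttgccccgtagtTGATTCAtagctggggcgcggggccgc
Steap4, chr5:7960322-7960441, plus strand, from 150 to 31 bases before the start: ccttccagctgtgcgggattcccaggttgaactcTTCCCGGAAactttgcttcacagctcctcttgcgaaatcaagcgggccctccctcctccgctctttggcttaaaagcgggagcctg
The Stat motif was held by 8.3% of all 32851 promoters and by 1 of the 9, Steap4, where it begins 116 bases before the start. The loose AP-1 form was held by 7.81% of all promoters and by 1 of the 9, Osmr, 4 bases after the start. TGCNCNC, a loose form of the metal response motif that allows any base at each N, was held by 5 of the 9 (Cd44, Osmr, Timp1, S1pr3 and Aspg). It was held by 51% of all promoters. In the stricter form the base after TGC is A or G. The matches in Osmr (TGCCCGC) and Aspg (TGCCCTC) have C there and are not matches to that form. No share of all promoters is given for the stricter form. The antioxidant response motif TGACNNNGC was held by Aspg alone and by 12.4% of all promoters, and the NF-kappaB motif by none of the 9 and by 1.2% of all. No match overlapped a match to another of the motifs. These are counts of letters in a window of 300 bases and say nothing of binding.

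Most of these genes were higher at the high dose. Compared with Ctr mice, 8 of the 9 genes were upregulated in HD mice by the rule used here, in which limma's F test over Ctr, LD and HD and the contrast both have an unadjusted p under 0.05. Over all 20031 genes tested, 3.36% passed upwards in the same comparison and 5.09% in either direction. None of the 9 had an adjusted p under 0.05 by limma, which 26 genes (0.13%) reached, while edgeR gave 1 of the 9 (0.225% of all genes) and DESeq2 4 of the 6 that it gave a p (1.22% of all genes with an adjusted p). In the F test over all 6 groups 8 of the 9 had an unadjusted p under 0.05, where 6.91% of all genes did, and 2 an adjusted one, where 0.444% did. The median log2 fold change of the 9 genes was 1.23, against 0.01 for all genes. Steap4 alone did not pass. In bulk tissue fewer or more cells of a type cannot be told apart from less or more RNA per cell. The count of 8 fell to 5 without HD replicate 2, where 3.63% of all genes passed in either direction, and also to 5 without Ctr replicate 2 (5.86%) or Ctr replicate 4 (4.32%).

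**Figure D1:**
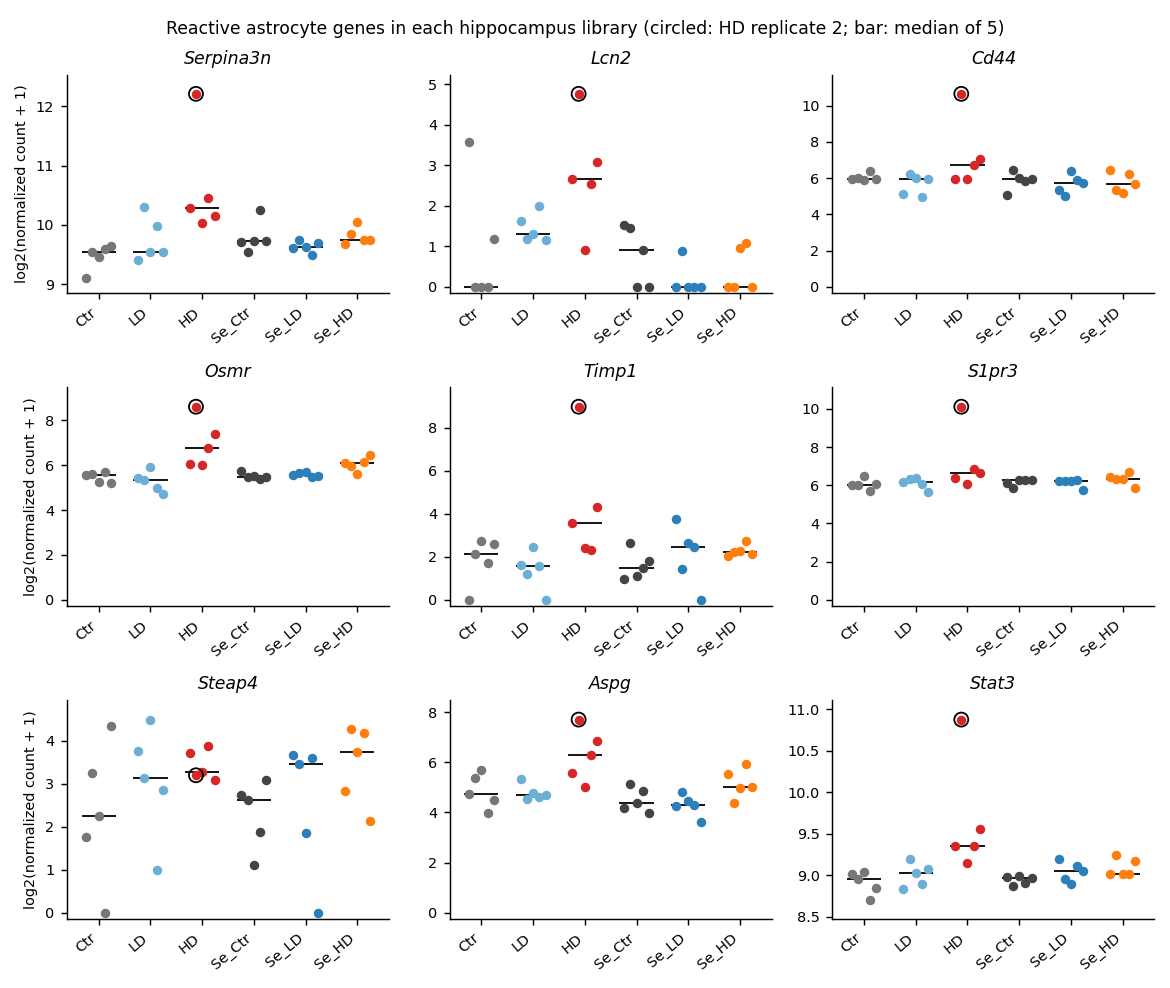
Log2(normalized count + 1) of the 9 genes in each of the 30 libraries, by group, with a bar at the median of 5 mice and a circle around HD replicate 2. HD had the highest median for 8 of the 9 genes and Se_HD for Steap4, and for Cd44, Timp1 and S1pr3 the circled mouse lies far above the other 4 HD mice.

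Among the secreted products, Serpina3n encodes a serine protease inhibitor of the acute phase type and is one of the most used markers of reactive astrocytes (NCBIM37, chromosome 12, 105644939 to 105652539). Its level was 548, 740.1, 704, 774 and 798 normalized counts in Ctr mice and 1254, 4745, 1042, 1394 and 1137 in HD mice. Every HD mouse exceeded every Ctr mouse, a separation seen upwards in 0.978% of the genes tested. The LD mice had 676, 1262, 748, 1009 and 743, so LD replicate 2 reached the range of the HD mice and the others did not. HD exceeded Ctr by 1.16 ± 0.29 on the log2 scale (SE, limma, adjusted p = 0.133). Without HD replicate 2 the HD mean was 1207 ± 152 (SD, n = 4), 1.69 times the Ctr mean, and the log2 fold change was 0.76 ± 0.16 with an adjusted p of 0.0821 by limma. It passed with and without the single high mouse.

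Lcn2 encodes lipocalin 2, a secreted carrier of iron-binding siderophores that reactive astrocytes and neutrophils release (NCBIM37, chromosome 2, 32240153 to 32243317). It was listed at 0 in Ctr replicates 2, 3 and 4, at 1.28 in Ctr replicate 5 and at 10.9 in Ctr replicate 1. The HD mice had 5.38, 26.1, 0.872, 4.82 and 7.50 normalized counts, from 4, 32, 1, 6 and 9 reads. Only HD replicate 2 lay above all Ctr mice, because Ctr replicate 1 had more than the other 4 HD mice. Its log2 fold change was 1.84 ± 0.67 (SE, limma, adjusted p = 0.388), and without HD replicate 2 it was 1.35 ± 0.65 and no longer passed the rule. Neutrophils also hold Lcn2, and none of the 6 neutrophil markers tested passed. Their summed level was 9.79 normalized counts in HD replicate 2 and up to 33.3 in the other HD mice, against 5.10 to 19.2 in Ctr mice.

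Timp1 encodes an inhibitor of matrix metalloproteinases that reactive astrocytes secrete (NCBIM37, chromosome X, 20447292 to 20451861). The Ctr mice had 0, 3.40, 5.67, 2.25 and 5.11 normalized counts and the HD mice 10.8, 503, 4.36, 4.02 and 19.2. HD replicate 2 alone had 616 reads, 153 times the Ctr mean in normalized counts, while HD replicates 3 and 4 lay within the range of the Ctr mice. Timp1 differed by 2.49 ± 0.91 on the log2 scale (SE, limma, adjusted p = 0.395) and by 1.32 ± 0.59 without HD replicate 2. The ratio of means shows the weight of that mouse, at 32.9 with all 5 HD mice and 2.91 with the other 4. Timp1 lies inside the neuronal gene Syn1 on the opposite strand, with no shared exon, and Syn1 had a mean of 3393 ± 398 (SD, n = 5) in Ctr and 3091 ± 220.4 in HD mice. The library kit kept strand, while the strand setting of the counting is not given in the sources used here.

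The receptors ranged from Osmr, which was high in every HD mouse, to Cd44 and S1pr3, which did not pass without HD replicate 2. Osmr encodes the oncostatin M receptor, the chain that pairs with gp130 and leads to Stat3 (NCBIM37, chromosome 15, 6763577 to 6824313). The Ctr mice had 45.9, 47.6, 36.8, 50.7 and 35.8 normalized counts and the HD mice 65.9, 388, 63.7, 108 and 166. No HD mouse overlapped with a Ctr or LD mouse, and HD replicates 2, 5 and 4 were the highest. Its log2 fold change was 1.51 ± 0.36 (SE, limma, adjusted p = 0.114), and 1.10 ± 0.27 without HD replicate 2. HD replicate 3 had the lowest Osmr and the lowest Aspg of the HD mice. When it was left out instead, the adjusted p by limma became 0.0321 for Osmr and 0.0421 for Aspg. For Aspg the adjusted p by limma was 0.116, 0.480, 0.285 and 0.373 without HD replicates 1, 2, 4 and 5 in turn. Without HD replicate 1 the adjusted p of Osmr was 0.0378, and without HD replicates 2, 4 and 5 in turn it was 0.226, 0.190 and 0.255 by limma. Over all 6 groups together Osmr had the lowest p of the 9, with an adjusted p of 0.00933 in limma's F test.

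Cd44 encodes the hyaluronan receptor of the cell surface (NCBIM37, chromosome 2, 102651298 to 102741822). The Ctr mice had 61.6, 64.7, 58.6, 83.4 and 60.1 normalized counts, and the HD mice 61.9, 1610.3, 60.2, 104 and 135. HD replicates 1 and 3 were at control level, replicates 4 and 5 were moderately high and replicate 2 was 24.5 times the Ctr mean. A log2 fold change of 1.23 ± 0.58 (SE, limma, adjusted p = 0.594) became 0.38 ± 0.27 without HD replicate 2 and did not pass.

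S1pr3, one of the receptors for sphingosine 1-phosphate, also had its rise carried by few mice (NCBIM37, chromosome 13, 51503987 to 51518166). The Ctr mice had 62.8, 63.0, 87.9, 51.8 and 65.2 normalized counts and the HD mice 83.4, 1108, 67.2, 114 and 99.2. HD replicates 2, 4 and 5 lay above all Ctr mice, and replicate 2 was 16.7 times the Ctr mean. S1pr3 differed by 1.17 ± 0.49 on the log2 scale (SE, limma, adjusted p = 0.497), and it was 0.45 ± 0.20 and did not pass without HD replicate 2.

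Aspg and Steap4 encode enzymes. Aspg, an asparaginase and lysophospholipase (NCBIM37, chromosome 12, 113344894 to 113365784), had 25.4, 40.8, 51.0, 14.6 and 21.7 normalized counts in Ctr mice and 47.1, 207, 31.4, 76.4 and 116 in HD mice. HD replicates 2, 4 and 5 were above all Ctr mice and replicates 1 and 3 were not. HD exceeded Ctr by 1.43 ± 0.40 on the log2 scale (SE, limma, adjusted p = 0.183), and 1.08 ± 0.36 without HD replicate 2, which still passed. In the F test over all 6 groups its adjusted p was 0.0293.

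Steap4, a metalloreductase that reduces iron and copper (NCBIM37, chromosome 5, 7960472 to 7982213), was the exception. It had 2.41, 8.51, 3.78, 0 and 19.2 normalized counts in Ctr mice and 12.1, 8.16, 8.72, 13.7 and 7.50 in HD mice. The HD mice lay inside the range of the Ctr mice, and HD replicate 2 was among the lower of them. The summed choroid plexus markers were 2328, 20969, 16735, 4675 and 42843 normalized counts in the same Ctr mice, highest where Steap4 was highest. In the HD mice they were 43789, 25687, 41063, 40448 and 9784, lowest where Steap4 was lowest. The part of choroid plexus tissue in the Steap4 values was not tested. The log2 fold change was 1.11 ± 0.65 (SE), with a 95% interval from -0.24 to 2.46, which included both 0 and the value of most of the other genes.

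Stat3, the transcription factor of the pathway (NCBIM37, chromosome 11, 100746412 to 100800854), had the smallest of the 8 rises, and it was present in every HD mouse. The Ctr mice had 514, 497, 526, 415 and 459 normalized counts and the HD mice 652, 1876, 566, 652 and 752. There was no overlap of the HD and Ctr mice. Stat3 differed by 0.74 ± 0.21 on the log2 scale (SE, limma, adjusted p = 0.199), and 0.44 ± 0.11 without HD replicate 2, when the HD mean was 1.36 times the Ctr mean. Exons of Stat3 overlap those of Stat5a on the opposite strand, and Stat5a had a mean of 13.2 normalized counts in Ctr and 24.3 in HD mice, far below the level of Stat3.

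**Figure D2:**
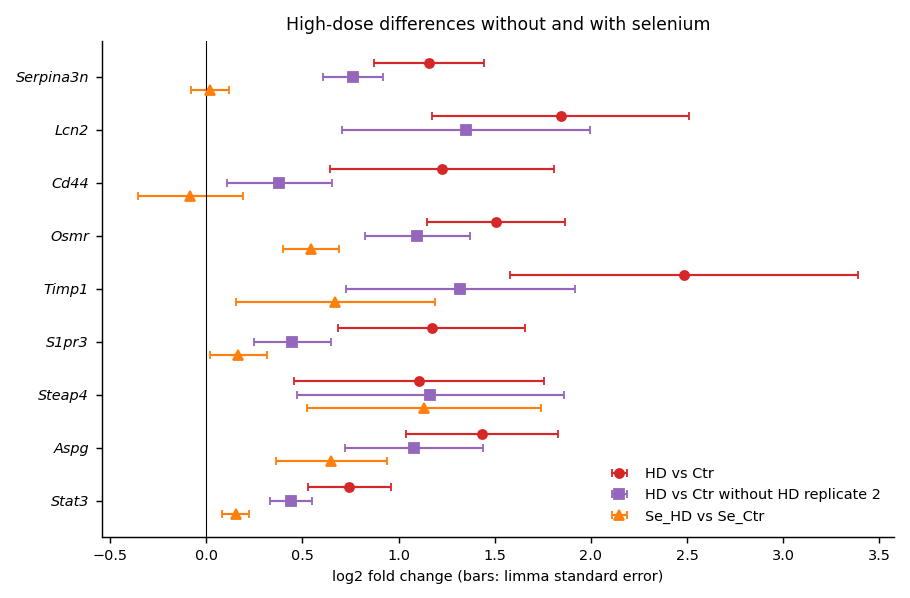
Log2 fold change with its limma standard error for HD against Ctr, for the same comparison without HD replicate 2, and for Se_HD against Se_Ctr, where Lcn2 was not tested. Leaving out the 1 mouse took Timp1 from 2.49 to 1.32 and Cd44 from 1.23 to 0.38, and on selenium only Osmr and Aspg passed the rule.

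Multiples of the control mean are shown by mouse for the HD and Se_HD groups. The genes differed in how many HD mice lay above the highest Ctr mouse. Serpina3n, Osmr and Stat3 were above all Ctr mice in 5 of 5 HD mice, as were 0.978% of the genes tested. Cd44, Timp1, S1pr3 and Aspg were above all Ctr mice in 3 of 5, Lcn2 in 1 and Steap4 in none. By mouse, HD replicate 2 exceeded all Ctr mice for 8 genes, replicate 5 for 7, replicate 4 for 6, replicate 1 for 4 and replicate 3 for 3. For single mice, and for genes above all Ctr mice in only some HD mice, no share over all genes is given. A single mouse can exceed 5 others by chance, so the lower of these counts are not read as a rise.

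**Figure D3:**
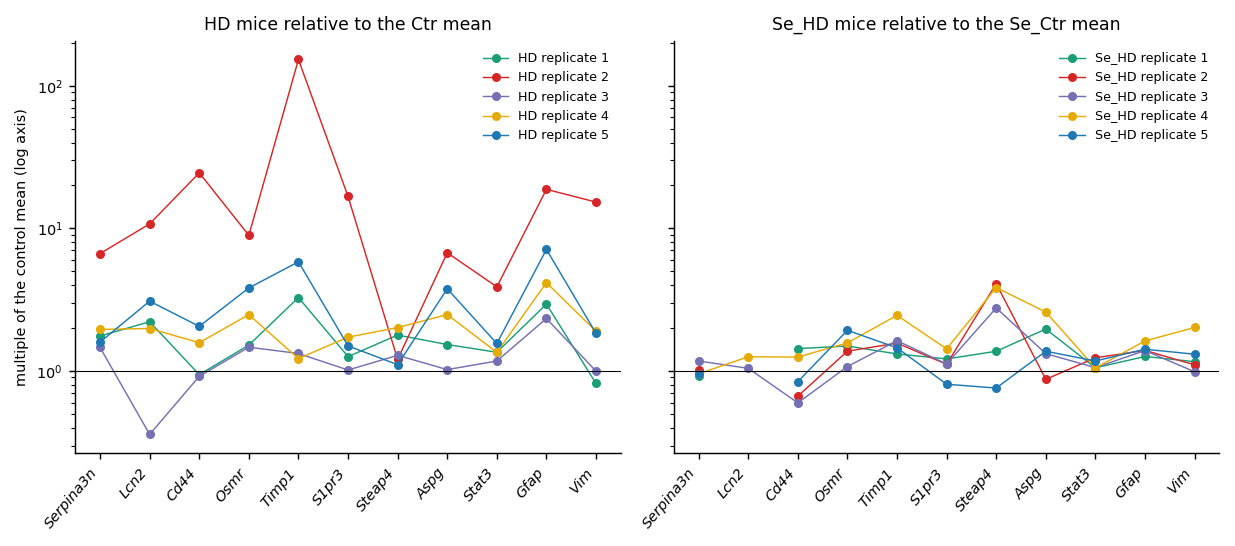
Level of each gene in each HD mouse as a multiple of the Ctr mean (left) and in each Se_HD mouse as a multiple of the Se_Ctr mean (right), on a log axis, with Gfap and Vim added and values of 0 not drawn. The lines of the HD mice spread widely, up to 153 times for Timp1, while the highest Se_HD value is 4.09 times, for Steap4.

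No rise was detected at the low dose. In LD against Ctr none of the 9 passed, where 1.46% of all genes did, and their log2 fold changes lay between -0.47 for Timp1 and 0.72 for Steap4. By the contrast alone at an unadjusted p under 0.05 the count was also 0, where 3.01% of all genes passed, and edgeR and DESeq2 gave 0 as well. The median over the 9 genes was 0.07. The 95% intervals were narrowest for Stat3, from -0.35 to 0.54, and reached from -0.63 to 2.07 for Steap4. The standard errors are those of the 3 groups together, so the spread among the HD mice enters them. In HD against LD, 7 of the 9 genes were upregulated, where 3.04% of all genes were, and the exceptions were Lcn2 and Steap4. Among the 7 the difference was smallest for Stat3, at 0.65 ± 0.21 (SE), and Osmr differed by 1.70 ± 0.36.

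On selenium the high dose moved few of the genes. In Se_HD against Se_Ctr, 8 genes could be tested, since Lcn2 had 8 reads in the 15 selenium libraries together and fell under the filter of a sum of 10 normalized counts. Osmr and Aspg passed upwards, 2 of 8, where 1.28% of all genes passed upwards and 2.06% in either direction, and no gene of the whole table had an adjusted p under 0.05. With edgeR and with DESeq2 the count was also 2, with no share of all genes given here. By the contrast alone it was 3, with Stat3 added, where 4.19% of all genes passed. Both Osmr and Aspg passed under the fit within the selenium groups, but neither did when all 30 libraries were fitted together.

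Osmr had 52.2, 43.2, 44.5, 41.2 and 43.0 normalized counts in Se_Ctr mice and 67.1, 61.7, 48.2, 70.6 and 86.4 in Se_HD mice. In 4 of 5 Se_HD mice it lay above all Se_Ctr mice, with a log2 fold change of 0.54 ± 0.15 (SE) and an adjusted p of 0.9996 by limma. Aspg had 17.1, 34.6, 19.9, 27.8 and 14.9 in Se_Ctr mice and 45.0, 20.0, 30.2, 59.2 and 31.4 in Se_HD mice, which overlapped. Its log2 fold change was 0.65 ± 0.29 (SE). The count of 2 became 1 without Se_Ctr replicate 1, 3 or 5, or without Se_HD replicate 1 or 4. Fibroblast markers moved with these genes, since 3 of 8 pericyte and fibroblast markers rose, Col1a1 by 0.71 ± 0.27, Col1a2 by 0.84 ± 0.34 and Lum by 0.73 ± 0.29. Their summed level was 6569 to 8707 normalized counts in Se_HD and 3815 to 6176 in Se_Ctr mice, and their part in the result was not tested.

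Serpina3n did not follow. It had 837, 749, 847, 1213 and 842 normalized counts in Se_Ctr mice and 822, 917, 1055, 857 and 855 in Se_HD mice. The difference was 0.02 ± 0.10 on the log2 scale, with a 95% interval from -0.19 to 0.23. For Cd44 the difference was -0.08 ± 0.27 and for S1pr3 0.17 ± 0.15. Steap4 and Timp1 had larger but uncertain differences, at 1.13 ± 0.61 and 0.67 ± 0.52, which did not pass. In all, 7 of the 8 differences were positive. Stat3 had 503, 468, 509, 478 and 498 normalized counts in Se_Ctr mice and 517, 607, 518, 516 and 577 in Se_HD mice. Every Se_HD mouse exceeded every Se_Ctr mouse, a separation seen upwards in 0.478% of the genes tested, by 0.15 ± 0.07 on the log2 scale. It passed the contrast but not limma's F test over the 3 selenium groups. The low dose on selenium (Se_LD against Se_Ctr) moved none of the 8 genes, where 1.46% of all genes passed. In Se_HD against Se_LD, Osmr at 0.48 ± 0.15 and Aspg at 0.88 ± 0.29 passed, where 1.2% of all genes passed upwards.

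Selenium was also compared at each dose. In Se_Ctr against Ctr none of the 9 genes passed, where 1.3% of all genes did. In Se_LD against LD, Lcn2 alone passed downwards, where 0.374% of all genes did. It had 1 to 3 reads in each LD library and 1 read in all 5 Se_LD libraries, so no fold is given, and it did not pass without LD replicate 4. In Se_HD against HD, 8 of the 9 genes were lower and Steap4 was not, where 2.62% of all genes passed downwards. The log2 fold changes of the 8 lay between -2.38 ± 0.56 for Lcn2 (adjusted p = 0.0528, limma) and -0.56 ± 0.17 for Stat3. Lcn2 had 2 reads in the 5 Se_HD libraries together, so its value depends on the pseudocount. None had an adjusted p under 0.05 by limma, which 0.327% of all genes had, while edgeR gave 6 of the 9 (0.781% of all genes) and DESeq2 7 of 8 (1.25% of all genes with an adjusted p). Without HD replicate 2, 5 of the 9 passed, and the share of all genes in that refit is not given here. These comparisons use the same HD mice as HD against Ctr and are not separate evidence.

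The test of whether the effect of the high dose differed with selenium is the interaction over all 30 libraries. It passed for 4 of the 9 genes, all downwards, where 1.6% of all genes passed downwards, and edgeR gave 6 and DESeq2 5. With limma none of all 21383 genes had an adjusted p under 0.05. On the log2 scale Serpina3n had an interaction of -1.14 ± 0.33 (SE, limma, adjusted p = 0.543), Lcn2 -2.21 ± 0.80, Osmr -0.96 ± 0.41 and Stat3 -0.59 ± 0.24. The selenium side of the value for Lcn2 is 2 reads in all Se_HD libraries against 5 in all Se_Ctr libraries, so for Lcn2 a smaller effect on selenium could not be tested. For Aspg it was -0.78 ± 0.52 and did not pass, so that a different effect on selenium was not shown for it. The 95% intervals of Cd44 (-1.31 ± 0.71), Timp1 (-1.81 ± 1.12) and S1pr3 also included 0, and Steap4 had 0.03 ± 0.96. Without HD replicate 2 the interaction passed for 3 genes, and without HD replicate 3 for 7. No share of all genes is given for these refits or for edgeR and DESeq2, so their counts describe the 9 genes only. The interaction of the low dose with selenium passed for none, where 1.09% of all genes passed.

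Of the 5 other pan-reactive genes 4 rose in HD mice. Gfap encodes an intermediate filament protein, and its rise is widely used as a sign of reactive astrocytes. It had 1722, 1673, 1988, 1430.0 and 1929.6 normalized counts in Ctr mice and 5143, 32820.3, 4080.2, 7281 and 12446 in HD mice. It rose by 2.39 ± 0.35 on the log2 scale (SE, limma, adjusted p = 0.00716), and by 1.93 ± 0.21 without HD replicate 2. Vim, Hspb1 and Cxcl10 also rose and Cp, the ferroxidase ceruloplasmin, did not, at 0.10 ± 0.24, and at -0.09 ± 0.22 without HD replicate 2. Without HD replicate 2, Gfap alone of the 5 passed. In Se_HD against Se_Ctr, Gfap at 0.51 ± 0.12 and Cp at 0.70 ± 0.19 were upregulated. For Cp the Se_Ctr mean was low, at 106 ± 16.6 (SD, n = 5) against 165 ± 43.7 in Ctr mice. The Se_HD mean of Cp, 181 ± 59.2, was no higher than the HD mean of 185 ± 79.8.

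In the pathway that leads through Osmr to Stat3, few other genes passed in HD against Ctr. Of the gp130 cytokines, Il6 and Osm, the ligand of Osmr, fell under the filter, and none of the other 5 passed. Of 5 further receptor chains, Il6ra rose by 0.52 ± 0.22 and the chains with the highest levels, Il6st (gp130 itself), Cntfr and Lifr, had values of 0.15 ± 0.13, -0.02 ± 0.22 and 0.14 ± 0.12. None of 8 Jak kinases and other Stat factors passed, with a median of 0.10. Of 8 feedback and target genes, Socs3, the inhibitor that Stat3 induces, rose by 1.56 ± 0.50 and Bcl3 by 1.73 ± 0.64. Bcl3 had a mean of 6.32 normalized counts in HD mice and was at 0 in 4 of 5 Ctr mice. Without HD replicate 2 neither Il6ra, Socs3 nor Bcl3 passed. In Se_HD against Se_Ctr no gene of these 4 lists passed.

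Among ligands, substrates and relatives of the members, 2 of 14 partners of Lcn2, Cd44 and Timp1 rose. These were Spp1 (osteopontin, a ligand of Cd44) by 2.39 ± 0.76 and Cd63, a membrane partner of Timp1, by 1.17 ± 0.25. Spp1 had 2821 normalized counts in its highest HD mouse and a median of 68.3 in HD mice against 24.1 in Ctr mice. The hyaluronan synthases Has1, Has2 and Has3, the matrix metalloproteinases and Timp2, Timp3 and Timp4 did not pass. None of 8 genes of sphingosine phosphate receptors, kinases, export and breakdown passed, with S1pr2 at 0.80 ± 0.33. In the family list 3 of 13 rose, Serpina3f by 1.46 ± 0.37, Serpina3i by 1.69 ± 0.63 and Serpina3m by 0.96 ± 0.36. These are close copies of Serpina3n, so reads may have been shared among them. On selenium Spp1 rose by 0.85 ± 0.31 and Timp3 by 0.38 ± 0.10, and Serpina3c fell by 0.64 on the log2 scale.

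Of the A1 list, 2 of 11 genes rose in HD mice, Ggta1 by 1.14 ± 0.32 and Gbp2 by 0.98 ± 0.35. Of the A2 list, 4 of 11 tested rose, with Tgm1 at 1.92 ± 0.76, S100a10 at 0.97 ± 0.41, Tm4sf1 at 0.69 ± 0.28 and Cd14, a co-receptor for endotoxin that microglia also express, at 2.42 ± 0.39. Without HD replicate 2, 2 of the A1 and 1 of the A2 genes passed. On selenium Serping1 of the A1 list rose by 0.70 ± 0.26 and Tm4sf1 of the A2 list by 0.43 ± 0.16.

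**Figure D4:**
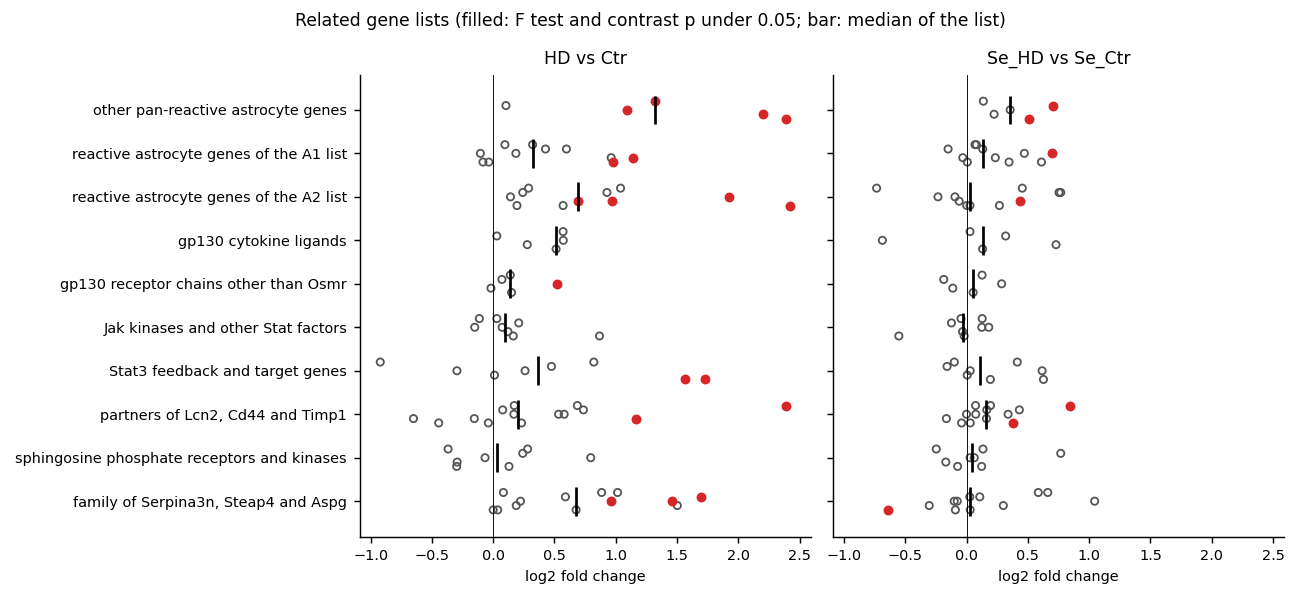
Log2 fold change of each gene in 10 related lists for HD against Ctr (left) and Se_HD against Se_Ctr (right), with a bar at the median of the list and filled points for genes that passed. The pan-reactive genes had a median of 1.32 in HD against Ctr and 0.36 in Se_HD against Se_Ctr, while the Jak and Stat list lay near 0 in both.

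Markers of other cells moved with these results. All 14 microglia markers rose in HD mice and 13 did without HD replicate 2. Their summed level was 4964, 10707, 4250.3, 5844 and 9063 normalized counts in the HD mice against 3290 to 3569 in Ctr mice and 3446 to 4038 in Se_HD mice. HD replicate 2 thus had the highest microglia sum and replicate 3 the lowest, the same 2 mice that were highest and lowest for most of the 9 genes. In the interaction with selenium 13 of the 14 microglia markers passed downwards. The part of microglia in the result was not tested. Of 10 general astrocyte markers 3 rose, Aqp4 by 0.97 ± 0.31, Aldh1l1 by 0.49 ± 0.20 and Sox9 by 0.42 ± 0.14. The astrocyte sum was 58733 to 65752 in HD and 50139 to 60605 in Ctr mice, so that both ranges overlapped. HD replicate 2 had the lowest neuron sum of the HD mice, at 40886, and the lowest oligodendrocyte sum, at 22546. Of 6 neuron markers Gad1 alone passed, downwards. No endothelial, fibroblast, oligodendrocyte, choroid plexus, erythrocyte or hippocampus marker passed in HD against Ctr. The choroid plexus list still had a median log2 fold change of 1.41, larger than the 1.14 of the microglia list. Its mean sum was 17510 for Ctr and 32154 for HD. The sum varied from 2328 to 42843 among the Ctr mice alone. The part of this tissue difference in the result was not tested.

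**Figure D5:**
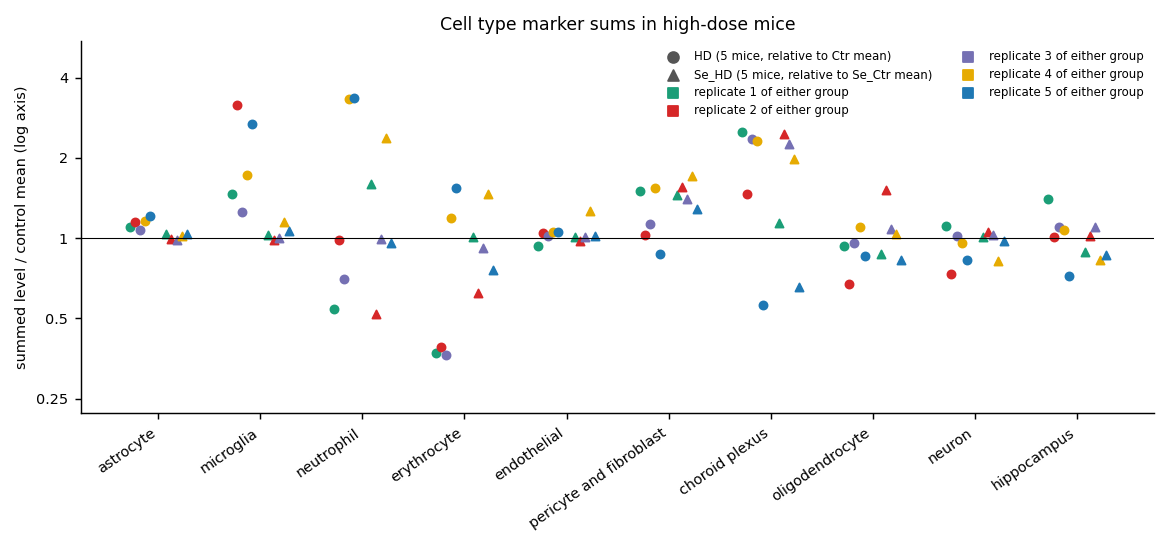
Summed marker level of 10 cell type or tissue lists in each HD and Se_HD mouse relative to the mean of its control group, on a log axis. Microglia sums were above the control mean in all 5 HD mice and near it in all 5 Se_HD mice. Astrocyte sums were also above it in all 5 HD mice, by less, and lay on both sides of it in the Se_HD mice.

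In the order of the group means HD had the highest mean for 8 of the 9, and Se_HD for Steap4, at 11.4 ± 6.54 (SD, n = 5) against 10.0 ± 2.70 in HD mice. The choroid plexus markers also had their highest mean sum in Se_HD mice, at 36268 against 32154 in HD mice, and their part in the Steap4 level was not tested. Se_HD came second for Serpina3n, Osmr, S1pr3, Aspg and Stat3, at 66.8 ± 13.9 for Osmr and 37.2 ± 15.2 for Aspg. For Stat3 the 5 other means were close together, with 482 ± 45.5 in Ctr, 491 ± 17.6 in Se_Ctr, 515 ± 52.2 in LD, 526 ± 44.1 in Se_LD and 547 ± 42.6 in Se_HD mice.

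The genes whose pattern over the 30 libraries was most like the mean level of the 7 genes with a mean over 10 normalized counts (all but Lcn2 and Steap4) were Il6ra, Lyz2, C4b, Sec24d and Aebp1, with Spearman correlations of 0.78, 0.77, 0.76, 0.76 and 0.75 over 14296 genes ranked. Over the 20 libraries without the high dose these were 0.65, 0.40, 0.39, 0.54 and 0.58. Single genes of the list were most like different genes, Serpina3n like Psmd1 (0.78), Osmr like Nfe2l2 (0.76), Cd44 like Tfpi (0.76), S1pr3 like Tagln2 (0.81), Timp1 like Icam1 (0.69), Aspg like Fcgr2b (0.75) and Stat3 like Bach1 (0.78). Among these 7 themselves the median of the 21 pairwise correlations was 0.42 over 30 libraries and -0.03 over the 20 without the high dose. These correlations are descriptions, since all libraries share the scaling and the HD mice the exposure.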

How the data were processed

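Hippocampus RNA of 30 mice was sequenced by the authors as stranded single-end libraries, trimmed (Trim Galore 0.4.2), mapped with HISAT2 to NCBIM37 and counted per gene with featureCounts. The deposited values are normalized counts (a signal without a fixed unit), made by the authors by dividing read counts by DESeq2 size factors. Within a tolerance of 0.01, 100% of the values were whole reads times 1 step per library, so reads could be recovered. Symbols were found for 21326 of the 21412 identifiers.

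Log2(normalized count + 1) was fitted with limma 3.58.1 (trend, R 4.3.3) over Ctr, LD and HD (20031 genes with a sum of at least 10), over the selenium groups (19679 genes) and over all 30 libraries (21383 genes, selenium contrasts and interactions). Fold changes on this scale understate the change of low genes. A gene passed when the F test and the contrast both had an unadjusted p under 0.05, and p-values were adjusted by Benjamini-Hochberg across every gene fitted. Each library is 1 mouse, and Ctr, LD and HD mice were housed singly, so p-values measure the spread between mice. The count tests, edgeR 4.0.16 on recovered reads and DESeq2 1.42.0, were alternatives, as were other pseudocounts, filters, scalings, a block and leaving out each mouse. Of these fits only limma over Ctr, LD and HD was tested on simulated counts. The simulation had the same dispersion for every gene and no outlying mouse, so it does not cover the spread seen with HD replicate 2. The members, lists and motifs were chosen with earlier results of these data known. Named genes are all members, all pan-reactive genes, listed genes that passed in HD or Se_HD, the 3 receptor chains at the highest level and the genes most like the members. Slc10a6, Serpina3a, Serpina3b, Serpina3j and Elane were not analysed here. Promoters are from RefSeq (GRCm38.p6), with no coordinate carried over from NCBIM37.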

Additional observations from a re-analysis of the deposited data

Results flagged for a closer look

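In 13 of 54 groups of 5 mice the highest or lowest mouse stood apart by Dixon's ratio, the gap to the next mouse divided by the range of the group, with a critical value of 0.71. The figure of about 2.7 such groups by chance holds only for normally distributed values and independent groups. The ratio was taken on normalized counts without a log, some of them from few reads, and the same mice recur for each gene. The 13 groups are therefore not read as an excess over chance. HD replicate 2 was the mouse in 6 of them, for Serpina3n (0.905), Lcn2 (0.738), Cd44 (0.952), Timp1 (0.970), S1pr3 (0.955) and Stat3 (0.858), and it was the highest each time. For Osmr and Aspg the same mouse was highest without passing the critical value.

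The other groups were spread over different mice. Ctr replicate 1 was high for Lcn2 (0.882) and Ctr replicate 4 for Cd44 (0.755). LD replicate 1 was high for Aspg (0.733). Se_Ctr replicate 4 was high for Serpina3n (0.787). Se_LD replicate 2 was the only Se_LD mouse with a read of Lcn2 (ratio 1), and Se_LD replicate 5 was low for S1pr3 (0.820). Se_HD replicate 4 was high for Timp1 (0.724).

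The interaction of the high dose with selenium was -1.14 on the log2 scale for Serpina3n, -0.96 for Osmr and -0.59 for Stat3. Each had an unadjusted p under 0.05 by limma, where 1.6% of all genes passed downwards by the rule. None had an adjusted p under 0.05 by limma, so a different effect on selenium was not shown after adjustment. Lcn2 also had a negative interaction (-2.21), but its selenium libraries held 8 reads in all, so that value is set by the HD and Ctr mice and does not show a smaller effect on selenium.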

How the results depend on the processing

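The number of the 9 genes that passed in HD against Ctr, 8, was 5 with a pseudocount of 10, with a mean filter of 10 and without the variance trend, and 4 with DESeq2, which gave no p for 3 of the genes. It was 0 at an adjusted p under 0.05, as were the counts for HD against LD, Se_HD against HD, Se_HD against Se_Ctr, Se_HD against Se_LD, Se_LD against LD and the interaction with HD. The adjusted p passed for 3 genes in HD against Ctr with all 30 libraries in one fit, 1 with edgeR and 4 with DESeq2. With all 30 libraries Se_HD against Se_Ctr gave 0 and Se_HD against Se_LD 1. Se_LD against LD gave 0 with a pseudocount of 10 or the mean filter, and the interaction with LD gave 1 with a pseudocount of 0.1. The cause was not tested. Leaving out 1 mouse gave 5 to 8 genes for HD against Ctr, HD against LD and Se_HD against HD, 3 to 7 for the interaction with HD, 1 to 2 for Se_HD against Se_Ctr and against Se_LD, and 0 to 1 for Se_LD against LD and the interaction with LD. Over the HD mice left out in turn, 3.63% to 5.81% of all genes passed in HD against Ctr in either direction. For the other settings and comparisons in this section no share of all genes is given, so the counts describe the 9 genes only.

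Values of single genes were followed in 5 comparisons (HD and LD against Ctr, Se_HD against Se_Ctr and HD, and the interaction with HD), where none that had passed changed direction under these alternatives. Lcn2 in LD against Ctr, 0.51 in the main analysis, was -0.00856 with a pseudocount of 10, -0.38 with edgeR and -0.42 with DESeq2. Steap4 in Se_HD against HD was 0.046 with a pseudocount of 10, 0.12 with quantile normalization and 0.19 with edgeR and DESeq2, and its interaction was -0.50 with a pseudocount of 0.1. Over the mice left out, Steap4 ranged from -0.48 to 0.61 in the interaction and from -0.21 to 0.32 in Se_HD against HD, Aspg from -0.28 to 0.15 and S1pr3 from -0.011 to 0.19 in LD against Ctr, and in Se_HD against Se_Ctr Cd44 ranged from -0.27 to 0.064 and Serpina3n from -0.040 to 0.13.

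Libraries are numbered in sets of 6 with 1 mouse of each group. The deviations of mice in one set correlated at a median of -0.02, so the numbers were not taken as pairs, and a block for the set left the counts unchanged, at 8 in HD against Ctr, 7 in HD against LD, 8 in Se_HD against HD and 4 in the interaction. Depth limits Lcn2 and Steap4, with at most 32 and 29 reads in any library, and Timp1 outside HD replicate 2.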
